A study of Homo sapiens with 12 samples.

Results

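Harringtonine treatment was compared with cycloheximide alone in HEK293 cells labelled as a CRISPR-Cas9 knockout of CNBP, gene by gene, from the ribosome footprints that the authors summarised in 1 table. The measure was log2 of the knockout density with harringtonine over the knockout density with cycloheximide, less the median of that value (0.26) over the 12091 genes with all 4 group means above 0. Of 19219 gene rows, 12315 usable ones had both knockout means above 0. Of these, 1228 were well counted, with at least 100 estimated reads over both knockout groups, and the results below are about them. A ratio of 0 is therefore the median gene, and 1 means that harringtonine over cycloheximide density was 2-fold that of the median gene.

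HEK293 is an established human embryonic kidney line. The 12 libraries form 4 groups, wild type or CNBP knockout, each with cycloheximide alone (5 wild-type and 3 knockout libraries) or with harringtonine and cycloheximide (3 wild-type libraries and 1 knockout library). The header of both knockout columns carries the same name, KO6, and the sources used here do not say how many clones it stands for, so a clone's own traits and the knockout cannot be told apart. They do not give drug doses or times either. The table holds only the authors' mean per group, so no spread between replicates could be taken and no test between groups was possible. The single knockout library with harringtonine has no replicate check. All intervals are 95% counting intervals on estimated reads and leave out the differences between libraries.

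Harringtonine binds the large ribosomal subunit and stops ribosomes as they form their first peptide bonds, while ribosomes that are already elongating move on and leave the coding sequence. Cycloheximide blocks translocation and holds elongating ribosomes where they are. Footprints that remain after harringtonine are thus weighted towards start codons, and a whole-gene ratio of the treatments adds the start peak to what is left along the body of the message. Ribosomes of the mitochondrial matrix are of a bacterial type, and cycloheximide does not act on them. CNBP is a small protein with CCHC zinc knuckles that binds G-rich single-stranded nucleic acid, including mRNAs of the translation machinery.

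Messages of that machinery often open with a 5′ terminal oligopyrimidine (TOP) tract, a C at the cap followed by a run of C and U. The sequences shown here are 30 bases around the annotated start of transcription, from 10 bases before it, and the capitals mark the tract, counted as C followed by at least 4 further C or T from the first transcribed base. The first 4 are translation-machinery genes with different harringtonine ratios, and the last 2 are genes near the upper and the lower end of all ratios that also carry a tract. The letters are those of RefSeq's promoters (GRCh38.p14). EEF1A1 lies at chr6:73521013-73521042 (minus strand), EEF2 at chr19:3985444-3985473 (minus), RPL39 at chrX:119791611-119791640 (minus), RPL13A at chr19:49487598-49487627 (plus), PHF1 at chr6:33411004-33411033 (plus) and METRNL at chr17:83081136-83081165 (plus).
EEF1A1: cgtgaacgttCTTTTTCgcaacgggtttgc
EEF2: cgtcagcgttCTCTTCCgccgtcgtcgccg
RPL39: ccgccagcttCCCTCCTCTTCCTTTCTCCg
RPL13A: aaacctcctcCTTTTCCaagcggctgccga
PHF1: cccccgccgcCTCCTCCTCCTgccgctgcc
METRNL: ggccgcctccCTTCTCggccgagcggggcc

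The table gave 848679 estimated reads for the knockout with cycloheximide and 400913 with harringtonine, against 2142598 and 1133809 in wild type. The median well-counted gene had 111 and 60.6 estimated reads in the knockout. C16orf93 took 14.9% of the knockout reads with cycloheximide and 14.2% with harringtonine. The label HEK293 was checked against marker genes: VIM, a filament protein of mesenchymal and cultured cells, had knockout densities of 1.43 and 2.01 with cycloheximide and harringtonine, EPCAM, an epithelial adhesion protein, 0.458 and 0.587, and INA, a neuronal filament protein, 0.0918 and 0.163. The kidney-lineage factors PAX2 (0.00422 and 0) and GATA3 (0.0492 and 0) were near 0 and the neurofilament NEFM at 0, so these markers do not bear the label out. Blood, liver and keratinocyte markers PTPRC, CD3E, ALB, KRT5 and KRT14 were listed at 0 in both knockout groups. Other markers were low but not at 0 in both: HBB of red blood cells (0 and 0.134), and the collagens COL1A1 (0.0571 and 0.0323) and COL3A1 (0.0159 and 0.00775). CNBP (hg19 chr3:128888327-128902765, minus strand) had 2.20 with cycloheximide and 2.36 with harringtonine, a relative ratio of -0.16 (interval -0.58 to 0.24). Its wild-type densities were 3.73 and 3.27, a ratio of -0.28. Footprints on CNBP were therefore present in both knockout groups, and whole-gene values do not show small insertions or deletions, so they check the knockout labels weakly.

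Most genes had a similar share of the footprints with and without harringtonine. The median of the 1228 ratios was 0.11, with 25th and 75th percentiles of -0.19 and 0.37 and 5th and 95th percentiles of -0.74 and 0.76, and 726 genes (59.1%) were above 0. Wild-type ratios of the same genes had a median of 0.10, with 5th and 95th percentiles of -0.70 and 0.89. In the knockout 28 genes (2.28%) were at least 2-fold higher with harringtonine and 32 (2.61%) at least 2-fold lower. For each of the 60 the counting interval excluded 0, which follows from the 2-fold and 100-read limits and adds no support. Counting only genes that have at least 100 estimated reads in each knockout group, a limit set after the values were seen, left 12 higher and 4 lower among 326 genes. A limit on harringtonine reads removes genes with low ratios more readily, so that split partly follows from the limit. Without centring, the ratios were all 0.26 higher and the split was 68 and 17. A wider group had an interval wholly above 0, 275 genes (22.4%), or wholly below 0, 143 genes (11.6%).

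**Figure D1:**
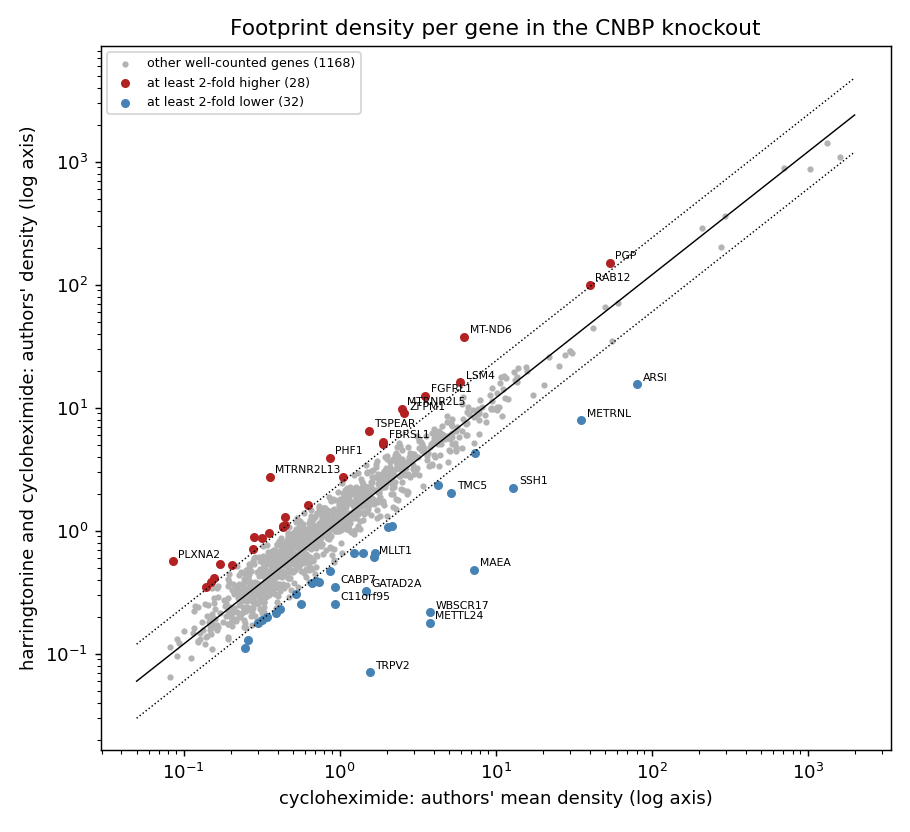
Authors' density per gene in the CNBP knockout with cycloheximide (x, log axis) and with harringtonine (y, log axis) for the 1228 well-counted genes. The solid line is the median ratio and the dotted lines lie 2-fold either side. Red points are the 28 genes at least 2-fold higher and blue points the 32 at least 2-fold lower, with the 12 outermost of each by interval bound named, such as PLXNA2 (2.46) and TRPV2 (-4.73).

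FGFRL1, ZFPM1 and PHF1 had high ratios in the knockout and in wild type. FGFRL1 (hg19 chr4:1003724-1020685, plus strand), a fibroblast growth factor receptor without a kinase domain, had an authors' mean density of 3.54 with cycloheximide and 12.6 with harringtonine. In wild type it had 6.62 and 20.3. Its ratio was 1.57 in the knockout (1.41 to 1.72) and 1.53 in wild type, a difference of 0.04 (-0.13 to 0.21). ZFPM1 (hg19 chr16:88519725-88603424, plus), also known as FOG1, a cofactor of GATA transcription factors, had 2.61 and 9.02 in the knockout and 4.80 and 14.6 in wild type. Its ratios were 1.53 (1.38 to 1.68) and 1.51. PHF1, a Polycomb-associated protein whose start sequence is shown above, had 0.862 and 3.91 in the knockout and 1.89 and 5.36 in wild type, ratios of 1.92 (1.54 to 2.30) and 1.41. For all 3 genes the harringtonine density was the higher of the pair in either genotype.

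Other genes were higher with harringtonine in both genotypes, with the smaller ratio in the knockout. PGP (hg19 chr16:2261998-2264808, minus), a phosphatase of phosphoglycolate and related metabolites, is among the best counted, with 6609 and 7752 estimated knockout reads. Its densities were 53.8 and 150 in the knockout and 70.9 and 257 in wild type, ratios of 1.22 (1.17 to 1.27) and 1.77. RAB12 (hg19 chr18:8609443-8639379, plus), a small GTPase of endosomal traffic, had 40.0 and 99.7 in the knockout against 46.8 and 299 in wild type, ratios of 1.06 (0.99 to 1.12) and 2.59. The cycloheximide densities of RAB12 were close in the genotypes, and it was the harringtonine densities that differed. LSM4, a subunit of the Sm-like ring that binds U6 RNA, had ratios of 1.17 in the knockout and 1.80 in wild type. FBRSL1, a relative of the neurodevelopmental gene AUTS2, had 1.90 and 5.28 in the knockout and 1.84 and 18.0 in wild type, so its ratio of 1.21 compares with 3.20.

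Further genes were at least 2-fold higher in the knockout and not in wild type. PLXNA2 (hg19 chr1:208195587-208417665, minus), a plexin receptor for semaphorin guidance cues, had 0.0854 with cycloheximide and 0.563 with harringtonine in the knockout, and 0.119 and 0.0915 in wild type. Its ratio was 2.46 (1.95 to 2.99), on 44 and 122 estimated reads, beside -0.47 in wild type. TSPEAR had 1.54 and 6.50 in the knockout (1.81, interval 1.60 to 2.03), whereas wild type had 0.888 and 0.00680, the latter about 1 read. KIAA1217 had 1.10 in the knockout and -1.37 in wild type, on 50 and 53 knockout reads. Lower down the list, and named after its values were seen, stood CTSA, a lysosomal carboxypeptidase (1.12, interval 0.79 to 1.46), with a wild-type ratio of 0.72. The highest of all, MTRNR2L13 (2.68, 2.01 to 3.40), rests on 24 and 78 reads and belongs to a family of near-identical copies, so its value is uncertain.

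**Figure D2:**
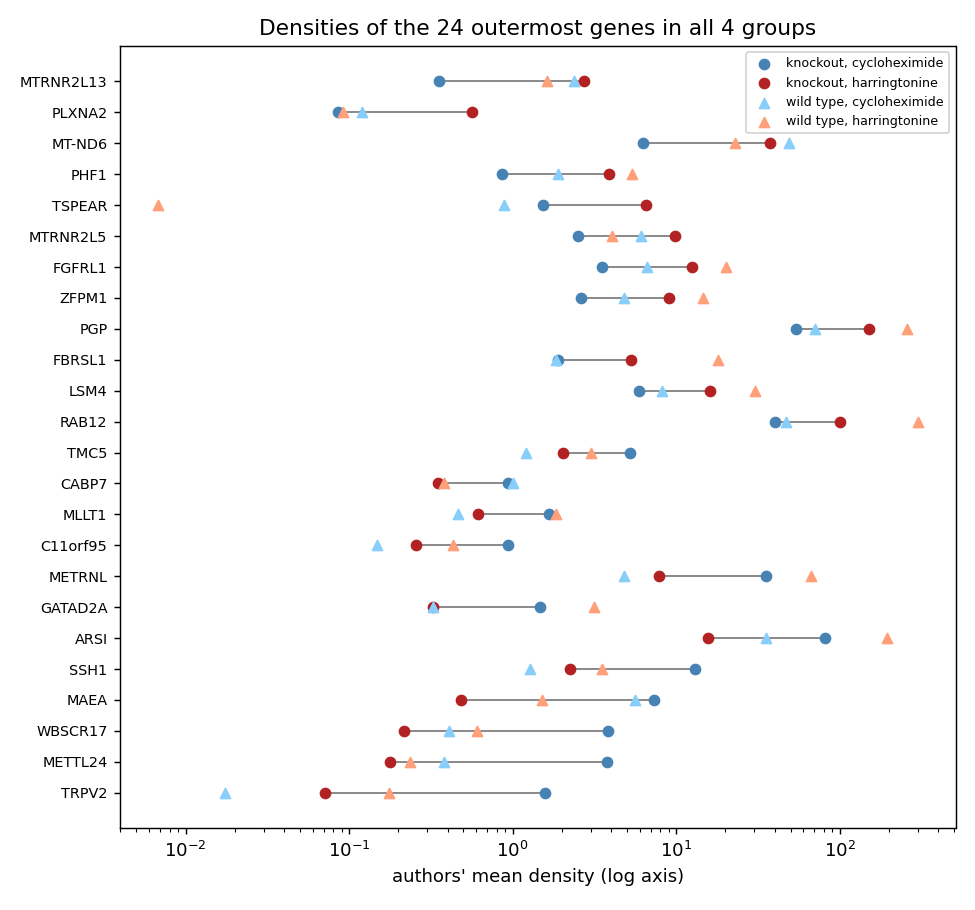
Authors' mean density (log axis) in all 4 groups for the 24 outermost genes, ordered by the knockout ratio. Circles joined by a line are the knockout, with cycloheximide in blue and harringtonine in red, and triangles are wild type in paler colours. ARSI and METRNL run from 80.9 to 15.6 and from 35.3 to 7.88 in the knockout and the other way in wild type, from 35.6 to 193 and from 4.81 to 66.5.

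Low ratios were best counted at 4 genes with at least 100 reads in each knockout group. ARSI (hg19 chr5:149675906-149718870, minus), of the arylsulfatase family, had 80.9 with cycloheximide and 15.6 with harringtonine in the knockout, a ratio of -2.64 (-2.74 to -2.54). In wild type it had 35.6 and 193, a ratio of 2.35. SSH1 (hg19 chr12:109176466-109251366, minus), the slingshot phosphatase of cofilin, had 13.0 and 2.24 in the knockout and 1.28 and 3.49 in wild type, ratios of -2.80 (-2.96 to -2.64) and 1.36. METRNL (hg19 chr17:81037567-81052864, plus), a secreted meteorin-like factor, had 35.3 and 7.88 in the knockout and 4.81 and 66.5 in wild type, ratios of -2.42 (-2.60 to -2.25) and 3.70. TMC5, a transmembrane channel-like protein, had 5.21 and 2.04 in the knockout and 1.20 and 3.00 in wild type, ratios of -1.61 (-1.84 to -1.39) and 1.23. In all 4 genes the cycloheximide density, as deposited and not centred, was higher in the knockout than in wild type and the harringtonine density was lower.

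The same arrangement of the 4 densities held for GATAD2A, TRPV2, C11orf95 and MLLT1 on fewer reads. GATAD2A, a component of the NuRD deacetylase complex, had 1.47 and 0.326 in the knockout and 0.325 and 3.14 in wild type, with ratios of -2.43 (-2.97 to -1.94) and 3.18. TRPV2, a calcium-permeable channel, had 1.57 and 0.0710 against 0.0173 and 0.175, ratios of -4.73 (-6.69 to -3.31) and 3.25, on 199 and 4 knockout reads. C11orf95, now named ZFTA, had ratios of -2.14 and 1.47. MLLT1, of the super elongation complex, had ratios of -1.70 and 1.91. The cycloheximide mean of the knockout averages 3 libraries, and a mean does not show whether 1 library carried the high values of these genes.

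Other low genes were not higher with harringtonine by 2-fold in wild type. MAEA (hg19 chr4:1283639-1333935, plus), a subunit of the CTLH ubiquitin ligase, had 7.29 and 0.482 in the knockout and 5.62 and 1.52 in wild type. Its ratios were -4.18 (-4.62 to -3.77) and -1.98, the same direction in both genotypes. CABP7, a calcium-binding protein, had -1.67 and -1.49. WBSCR17, now GALNT17, a glycosyltransferase of the GalNAc-transferase family, had 3.81 and 0.217 in the knockout but 0.410 and 0.609 in wild type, so its low ratio (-4.39, -5.21 to -3.68) went with a high cycloheximide density. METTL24 showed likewise 3.77 and 0.179 in the knockout against 0.382 and 0.234 in wild type (ratio -4.66, on 190 and 4 reads).

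Set against wild type, the outermost genes divided into those that went the same way and those that went opposite ways. Of the 28 higher genes, 10 were also at least 2-fold higher in wild type (35.7% of these 28 and 18.2% of the 55 such wild-type genes, where 4.48% of all 1228 were called in wild type). Named after their values were seen, they were FGFRL1, ZFPM1, PHF1, PGP, RAB12, LSM4, FBRSL1, TFCP2L1, DSCAM and CLCA2. Of the 32 lower genes, 8 were at least 2-fold lower in wild type, beside 1.95% of all 1228: MAEA, CABP7, VAT1L, LOXL1, EFNA3, SNRPD2, VKORC1L1 and MT-CO3. Another 8 of the 32 (25%) were at least 2-fold higher in wild type, beside 4.48% of all 1228: ARSI, SSH1, METRNL, GATAD2A, TRPV2, C11orf95, MLLT1 and TMC5. Of the 28, 3 (10.7%) were at least 2-fold lower in wild type, beside 1.95% of all 1228: MT-ND6, TSPEAR and KIAA1217. The knockout and wild-type ratios share no library. Across the 1228 genes, which are not independent replicates, they had a Spearman rho of 0.20 and a Pearson r of 0.05, and 60.1% of genes were on the same side of 0.

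**Figure D3:**
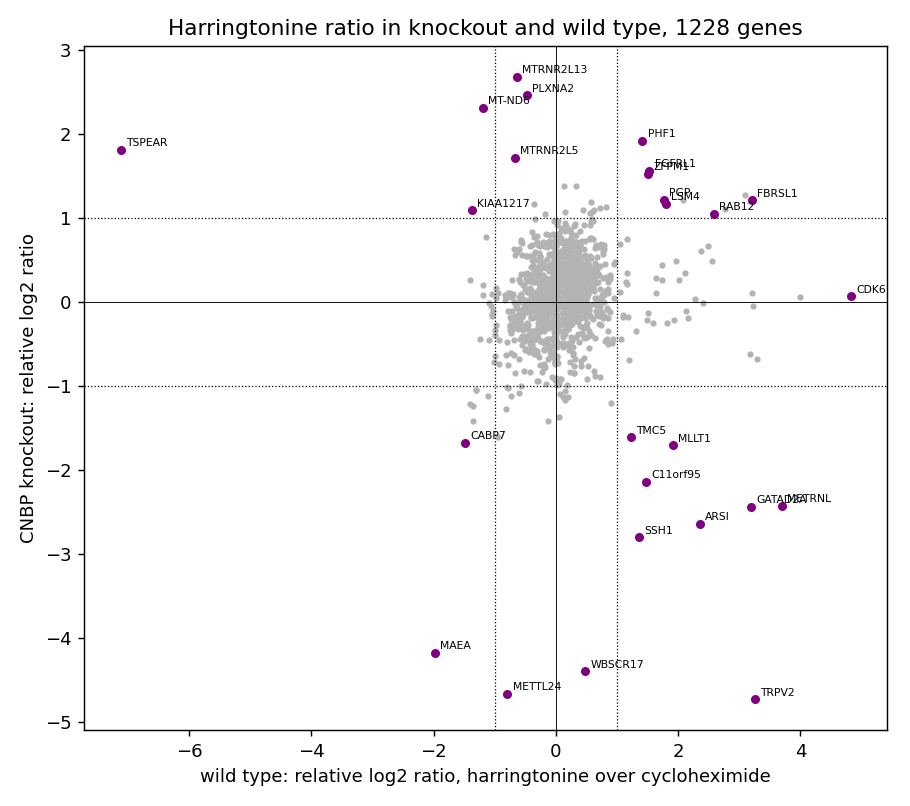
Relative log2 ratio of harringtonine over cycloheximide in wild type (x) and in the CNBP knockout (y) for 1228 genes, with dotted lines at 2-fold. Named points are the outermost genes of the knockout and of the difference. CDK6 lies far to the right at a knockout ratio of 0.07, and ARSI, METRNL, GATAD2A and TRPV2 lie at the lower right.

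CDK6, BMP8B, PPP1R3E and METRN had very high harringtonine ratios in wild type and knockout ratios near 0 or below it, unlike FBRSL1 and RAB12 above. CDK6 (hg19 chr7:92234235-92465908, minus), a kinase that drives G1 with D-type cyclins, had 3.45 and 4.34 in the knockout, a ratio of 0.07 (-0.04 to 0.18), against 2.07 and 62.2 in wild type, a ratio of 4.82. BMP8B, a bone morphogenetic protein, had 60.7 and 70.6 in the knockout and a ratio of -0.04 (-0.09 to 0.00), beside 3.23 in wild type. PPP1R3E, which targets protein phosphatase 1 to glycogen, had 0.06 and 4.00, and METRN, the meteorin relative of METRNL, -0.68 and 3.29. These genes come from a list of 11 that was picked on its wild-type ratios in an earlier analysis of the same table, so their wild-type values are a description of that choice. The 7 well-counted ones had knockout ratios between -4.73 and 0.07, with a median of -0.68, and 0 of 7 were above the median of all genes. The lowest, TRPV2, was well counted through cycloheximide alone (199 and 4 reads). The other 4, with fewer reads, were all above that median: CYHR1 (0.13, -0.56 to 0.81), EN1 (0.31, -0.42 to 1.02), TULP1 (0.55, -1.63 to 2.58) and HOXB8 (2.07, 0.32 to 4.09, on 4 and 9 reads).

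The difference between the genotypes' ratios was at least 2-fold on the higher side in the knockout for 37 genes (3.01%) and on the lower side for 81 (6.6%). By interval bound the highest differences were those of TSPEAR (8.93, 6.07 to 11.8), MT-ND6 (3.51, 3.20 to 3.82), MTRNR2L13, PLXNA2 (2.93, 2.22 to 3.65), MTRNR2L5 and KIAA1217 (2.47, 1.63 to 3.30). The lowest were those of METRNL (-6.12, -6.33 to -5.92), TRPV2 (-7.98), GATAD2A (-5.62), ARSI (-4.99, -5.09 to -4.89), CDK6 (-4.75, -4.88 to -4.62) and WBSCR17 (-4.88). Replicate error is absent from these intervals.

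Genes encoded on mitochondrial DNA, whose messages are read by the matrix ribosomes, were split. The list of 13 had 10 genes in the table and 6 well counted. MT-ND6, the lone protein gene of the light strand and a part of complex I, had 6.31 with cycloheximide and 37.6 with harringtonine in the knockout, a ratio of 2.31 (2.04 to 2.60). In wild type it had 49.2 and 22.9, a ratio of -1.19. The other 5 had ratios below 0: MT-CO3 (-1.04, -1.46 to -0.64) of cytochrome c oxidase, MT-CYB (-0.72) of complex III, MT-ND5 (-0.63) and MT-ND4 (-0.58) of complex I, and MT-ATP6 (-0.05, -0.60 to 0.49). The wild-type ratios of these 5 ran from -1.30 to -0.31.

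Another 4 mitochondrial genes were listed at 0 in the single knockout library with harringtonine. MT-CO1, the catalytic subunit of cytochrome c oxidase, had a knockout density of 12.7 with cycloheximide, or 880 estimated reads, and 0 with harringtonine, while wild type had 75.3 and 127. MT-CO2 had 1.72 and 0 in the knockout and 17.1 and 10.1 in wild type, and MT-ND1 0.603 and 0 against 0.987 and 0.944. MT-ND2 was also listed at 0. Such a 0 may be a missing entry and not a measurement, so no fold is given against it. Among all usable genes 1313 were listed at 0 with harringtonine only, with a median of 1.64 cycloheximide reads, and 4 of them had at least 20. These 4 were MT-CO1, MT-CO2, MT-ND1 and PLA2G2C (0.161 and 0).

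The humanin-like MTRNR2L genes are nuclear copies of a segment of the mitochondrial 16S ribosomal RNA, and near-identical copies make each value uncertain. The 9 of the list in the table took 16.8% of the knockout reads with cycloheximide and 15.3% with harringtonine. MTRNR2L8 had densities of 1037 and 865 (ratio -0.52), MTRNR2L1 704 and 888 (0.08), MTRNR2L6 297 and 361 (0.02) and MTRNR2L9 278 and 201 (-0.73). MTRNR2L5 had 2.49 and 9.84 (1.72, 1.46 to 1.98), beside a wild-type ratio of -0.67. MTRNR2L13, which the list left out, had 0.356 and 2.74 (2.68, described above). With it, 8 of 10 were below the median of all genes and these 2 above it.

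Cytosolic ribosomal proteins had ratios a little below the all-gene median in both subunits. The 43 well-counted large-subunit genes had a median of -0.03, from -0.64 for RPL36 to 0.60 for RPL26, with 5 intervals above 0 and 5 below (of all genes 22.4% and 11.6%). The 29 small-subunit genes had a median of -0.01, from -0.61 for FAU to 1.17 for RPS27, with 7 above and 4 below. Both medians are positive without centring, but they stay below the all-gene median, which moves with them. In wild type the medians were -0.18 and -0.24. Among the best counted, RPL7A had densities of 9.46 and 11.3 (ratio 0.00), RPL39 7.88 and 7.94 (-0.25, above 0 without centring) and RPS4X 6.63 and 10.2 (0.36, 0.16 to 0.55). RPS27 has near-identical copies, which leaves its value uncertain.

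Of the 19 elongation factors and other TOP messages, 15 were above the all-gene median and 4 below it. Their median was 0.23, with 6 intervals above 0 and 0 below (of all genes 22.4% and 11.6%). EEF1A1, which brings aminoacyl-tRNA to the ribosome, had 13.1 and 19.4 (0.31, 0.22 to 0.40), whereas EEF2, which drives translocation, had 8.18 and 10.1 (0.04, -0.10 to 0.18). TPT1, a growth-linked TOP message, was highest at 0.68 and NACA, of the nascent-chain-associated complex, lowest at -0.07. Of 13 aminoacyl-tRNA synthetases (median 0.39), 5 had intervals above 0 and 0 below (of all genes 22.4% and 11.6%), from FARSA at -0.38 to FARSB at 0.94, the 2 subunits of phenylalanyl-tRNA synthetase. EPRS, which charges tRNAs with glutamate and proline, had 1.16 and 2.02 (0.54, 0.27 to 0.82). The 19 initiation factors had a median of 0.15, with EIF3M at 0.78 (0.34 to 1.22) and EIF5A at -0.45 (-0.75 to -0.15), and the 16 ribosome biogenesis genes 0.19, from the RNA acetyltransferase NAT10 at -0.96 to the helicase DDX18 at 0.72.

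The TOP tract itself was set beside the ratios for the 760 well-counted genes with a single annotated start. It was present in 99 of them (13.0%), against 3.98% of all 22114 single-start entries of the RefSeq table, and in 37 of 47 ribosomal protein genes. The search used the sense strand at the annotated first base alone. Genes with the tract had a median knockout ratio of 0.06 and genes without it 0.13. Among tract genes other than ribosomal proteins the median was 0.14. As the printed sequences show, tracts of the same length stood at EEF1A1 (0.31), EEF2 (0.04) and RPL13A (0.04), and tracts also occurred at PHF1 (1.92) and METRNL (-2.42). Of the 15 higher and 18 lower genes with a single start, 2 and 2 had the tract. A match describes these letters and does not show that a message is controlled through them.

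**Figure D4:**
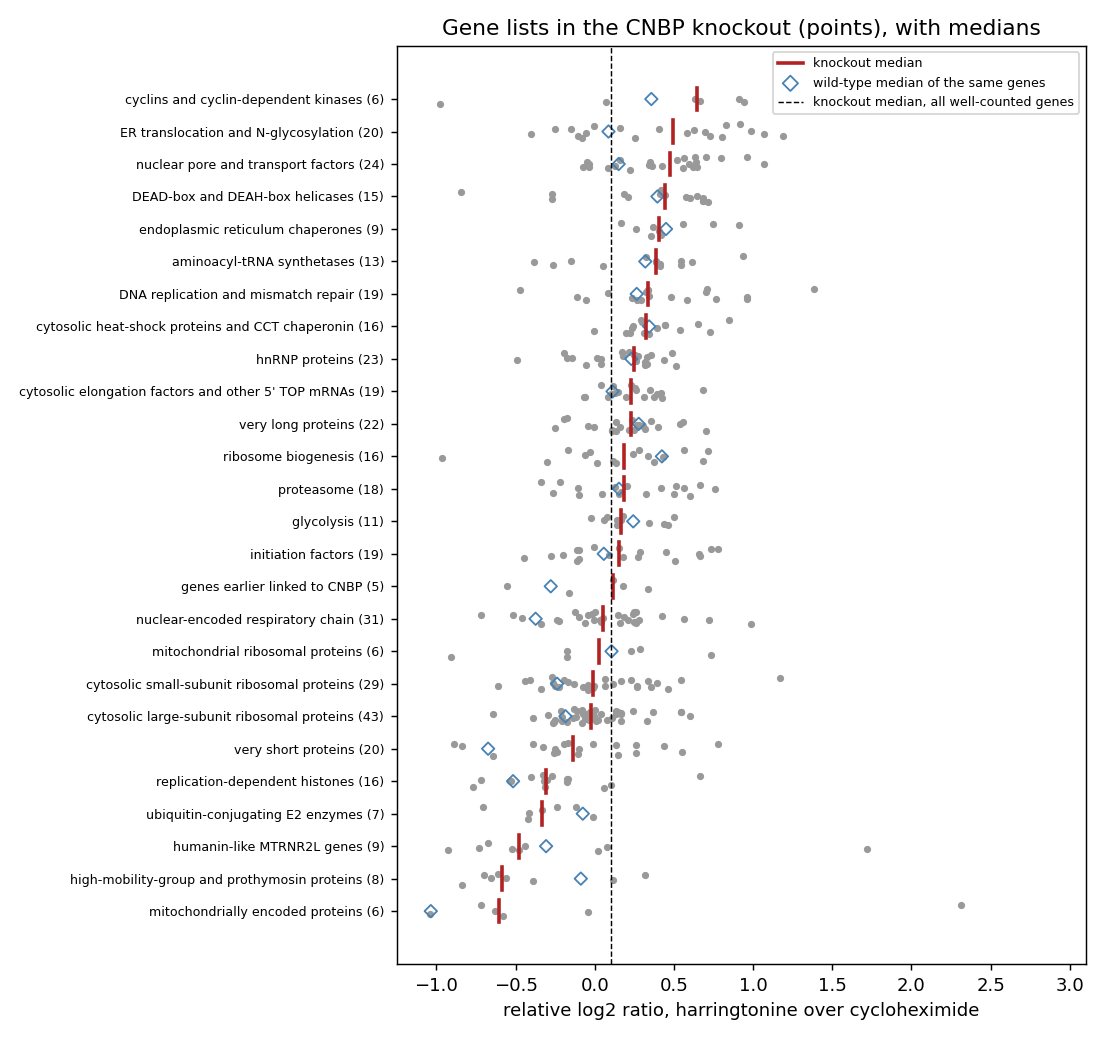
Relative log2 ratio of harringtonine over cycloheximide in the CNBP knockout for the well-counted members (grey points, number in brackets) of each list with at least 5. Red bars are the knockout medians, blue diamonds the wild-type medians of the same genes, and the dashed line is the knockout median of all 1228 genes (0.11). Cyclins and kinases, ER translocation and nuclear transport lie at the top, and histones, high-mobility-group and mitochondrially encoded genes at the bottom. With at least 50 reads, not drawn here, the top medians fell to 0.26, 0.29 and 0.26 in that order. The bottom ones were then -0.31, -0.56 and -0.61.

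Well-counted protein-folding genes had ratios above the all-gene median nearly throughout. Of 16 heat-shock and CCT chaperonin genes (median 0.33, wild type 0.34), 15 were above it and 10 had intervals above 0, with 0 below (of all genes 22.4% and 11.6%). Those 10 include the mitochondrial chaperones HSPD1 (0.45, 0.22 to 0.67) and HSPA9 (0.54, 0.29 to 0.79). HSP90AB1 had densities of 11.7 and 17.4 (0.31, 0.19 to 0.43), HSP90AA1 10.7 and 15.8 (0.30, 0.19 to 0.41) and HSPA8, the constitutive HSP70, 4.86 and 7.63 (0.39). CCT8 was highest with 2.39 and 5.17 (0.85, 0.56 to 1.14) and CCT6A, another ring subunit, lowest at 0.00. All 9 well-counted endoplasmic reticulum (ER) chaperones were above the all-gene median (median 0.41, wild type 0.45), with 7 intervals above 0. They ran from PDIA4, a disulphide isomerase, at 0.16 to PPIB, a prolyl isomerase of collagen folding, at 0.91 (0.41 to 1.41), with HSPA5, or BiP, at 0.37 and HSP90B1 at 0.41. With at least 50 reads the ER chaperone list had 13 genes, a median of 0.37 and a lowest ratio of -0.69, that of MANF.

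The 20 genes for bringing proteins into the ER had a median of 0.49 in the knockout and 0.09 in wild type. This list and those of nuclear transport, DNA replication and helicases were added after the values were seen, so their counts only describe. Of the 20, 11 had intervals above 0 and 0 below (of all genes 22.4% and 11.6%). NOMO1, NOMO2 and NOMO3 (1.07, 0.99 and 1.19) are near-identical copies, and with NOMO2 alone kept the median was 0.33 over 18 genes, with 9 intervals above 0. Subunits of oligosaccharyltransferase, which attaches N-glycans, were RPN1 with 0.657 and 1.48 (0.92, 0.40 to 1.43), DDOST with 0.981 and 2.08 (0.83) and RPN2 with 1.51 and 2.99 (0.73), while the catalytic STT3A and STT3B were 0.16 and -0.01. SRP9 and SRP14, which form the Alu domain of the signal recognition particle, were -0.40 and -0.15.

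Nuclear transport genes also lay high. Of 24 nuclear pore and transport genes (median 0.47, wild type 0.15), 14 had intervals above 0 and 0 below (of all genes 22.4% and 11.6%). CSE1L, which exports importin alpha, had 1.48 and 3.46 (0.96, 0.70 to 1.23) in the knockout and a wild-type ratio of -0.02. KPNA2, an importin alpha, had 2.32 and 4.83 (0.80, 0.53 to 1.06), KPNB1, importin beta, 1.37 and 2.21 (0.43), and RANBP2, a SUMO ligase on the pore's cytoplasmic side, 0.139 and 0.350 (1.07, 0.59 to 1.55). The GTPase RAN (0.16) and its partner RANBP1 (-0.05) were near the all-gene median.

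DNA replication and repair genes were also mostly on the higher side. Of 19 (median 0.34, wild type 0.26), 11 had intervals above 0 and 0 below (of all genes 22.4% and 11.6%). The subunits of the MCM helicase differed among themselves, with MCM6 at 0.97 (0.55 to 1.38), MCM5 at 0.77, MCM4 at 0.58, MCM7 at 0.34, MCM2 at 0.34 and MCM3 at -0.06 (-0.40 to 0.28). PCNA, the sliding clamp, had 5.21 and 7.53 (0.27, 0.01 to 0.53). RFC3, a subunit of the clamp loader, had 0.714 and 1.40 (0.71, 0.21 to 1.21). Of 15 DEAD-box and DEAH-box helicases (median 0.45, wild type 0.40), 9 had intervals above 0 and 1 below, from DDX18 at 0.72 and DDX21, a nucleolar helicase, at 0.69 to DDX51 at -0.84 (-1.56 to -0.17). With at least 50 reads the helicase list had 30 genes and its median fell to 0.20, with ratios from -0.95 to 0.82.

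Cell-cycle kinases and cyclins were few but wide. The 44 genes of the list had 6 well counted (median 0.65). The mitotic cyclin CCNB1 had 1.24 and 2.85 (0.94, 0.56 to 1.32) and its kinase CDK1 1.11 and 2.11 (0.66, 0.21 to 1.11). In wild type they had ratios of 0.16 and -0.19. CCND2, a D-type cyclin, was 0.91 (0.35 to 1.48), whereas its partner kinase CDK4 had 0.915 and 0.558 (-0.97, -1.72 to -0.28).

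Small basic proteins of chromatin lay at the low end. Of 16 replication-dependent histone genes (median -0.31, wild type -0.52), 15 were below the all-gene median, and 10 intervals were below 0 and 1 above (of all genes 11.6% and 22.4%). The linker histone HIST1H1C had the highest densities, 42.2 and 44.9 (-0.17, above 0 without centring), HIST1H1E had 30.9 and 28.0 (-0.40, -0.57 to -0.24), and HIST1H2AC was lowest with 7.31 and 5.13 (-0.77). HIST1H1D was the exception at 0.67 (0.24 to 1.08). HIST2H3A and HIST2H3C are near-identical copies, and their values (-0.32 and -0.31) are uncertain. Counted once, they leave 15 genes with a median of -0.30, 14 of them below the all-gene median, and 9 intervals below 0. Messages of this class end in a stem-loop without a poly(A) tail.

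High-mobility-group and prothymosin genes, from another list added after the values were seen, were low as well. Of 8 (median -0.59, wild type -0.09), 5 had intervals below 0 and 0 above (of all genes 11.6% and 22.4%). They were the nucleosome-binding HMGN2 (3.43 and 2.29, ratio -0.84, -1.26 to -0.44), PTMS (-0.70), HMGA1 (-0.66), prothymosin PTMA (7.80 and 6.11, -0.61, -0.86 to -0.37) and HMGB3 (-0.56). HMGB1 and HMGB2 were 0.11 and 0.32. The 20 well-counted genes for very short proteins had a median of -0.13 (above 0 without centring) against -0.67 in wild type, and ran from POLR2L at -0.89 to the spliceosomal SNRPE at 0.78. The wild-type ratio of SNRPE was -1.15.

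The nuclear-encoded respiratory chain had a median of 0.05 over 31 genes in the knockout and -0.37 in wild type. Most members had intervals that included 0, and 3 lay above and 3 below (of all genes 22.4% and 11.6%). Of the ATP synthase, ATP5F1 had 1.04 and 2.46 (0.99, 0.65 to 1.33) and ATP5B 6.07 and 10.8 (0.57, 0.37 to 0.77). Of complex I, NDUFS5 had 6.15 and 12.1 (0.72, 0.37 to 1.07), whereas NDUFB6 (-0.72) and NDUFS7 (2.54 and 2.13, -0.52, -0.79 to -0.24) were low.

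Of 10 genes earlier linked to CNBP, 5 were well counted, with a median of 0.12. ODC1, the first enzyme of polyamine synthesis, had 1.20 and 0.979 (-0.56, -1.05 to -0.08), beside -0.48 in wild type. MYC had 0.931 and 1.21 (0.12, -0.39 to 0.61) and HNRNPK 3.35 and 4.54 (0.18, -0.05 to 0.40). None of the 5 was at least 2-fold from the median gene. Ratios that far out were rare in the whole well-counted set (2.28% on the high side, 2.61% on the low side). Their absence among 5 genes therefore says little about this list. With fewer reads (40 and 57), ATG7, an autophagy enzyme, had 0.177 and 0.609 (1.52, 0.91 to 2.14) and a difference from wild type of 1.12 (0.27 to 1.98).

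Lists were mostly on the same side of the all-gene median in both genotypes. Of 26 lists with at least 5 well-counted members, leaving out the one picked on wild-type ratios, 13 were above it and 9 below it in both. In 3 the knockout median alone was above (initiation factors, genes earlier linked to CNBP, and ER translocation), and in 1 the wild-type median alone (mitochondrial ribosomal proteins). Some of these margins were small. Genes earlier linked to CNBP had 0.118, beside an all-gene knockout median of 0.105. ER translocation and mitochondrial ribosomal proteins had wild-type medians of 0.0872 and 0.106, beside 0.0999 for all genes. The lists share some genes and were not drawn at random, and the 7 lists added after the values were seen are among them.

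Transcript length had an uneven relation to the knockout ratio. Length here means the longest listed transcript, untranslated parts included. The median ratio was -0.04 in the bin of the shortest transcripts (525 to 1459 bases, 1 of 10 bins), 0.21 at 3099 to 3725 bases and -0.01 in the longest (8731 to 29630 bases). In wild type the same bins had -0.25, 0.22 and 0.11. Spearman's rho with length was -0.01 in the knockout and 0.22 in wild type over the 1228 genes, which are not independent replicates and share the same libraries. The knockout value depended on the reads required, at 0.20 with at least 200 over both groups, 0.25 with at least 100 in each, and -0.23 with a pseudocount of 1. The ratio had a rho of 0.04 with the number of reads.

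**Figure D5:**
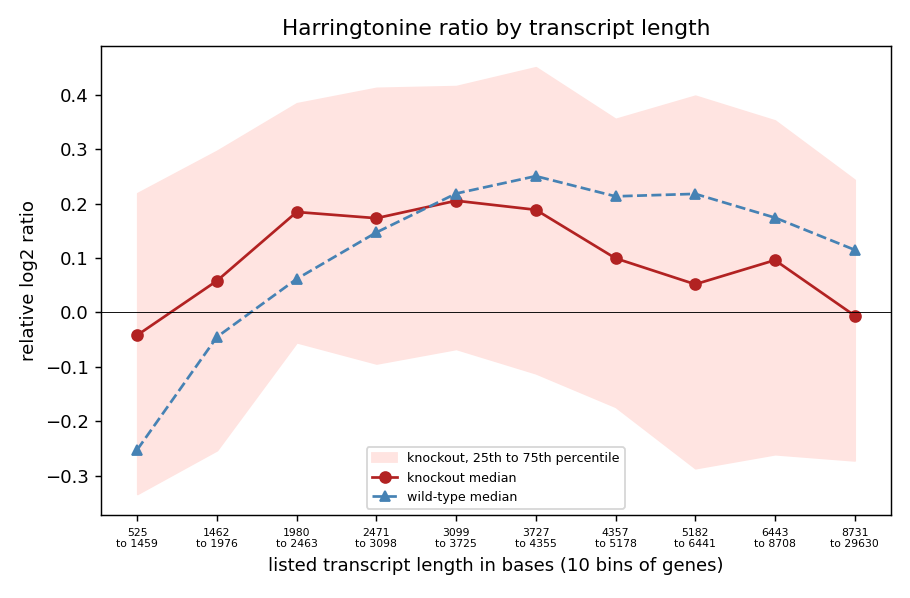
Median relative log2 ratio of harringtonine over cycloheximide in 10 bins of listed transcript length, for the knockout (red circles, with the 25th to 75th percentile shaded) and wild type (blue triangles). The knockout medians peak at 0.21 for 3099 to 3725 bases and end at -0.01, and the wild-type medians start lower, at -0.25.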

How the data were processed

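Ribosome footprints were measured in 12 HEK293 libraries. The submitters' processing notes name TopHat and hg19. These sources do not say how reads were assigned to genes. The authors deposited 1 table with a mean density per gene and group, read as a signal whose absolute scale is not stated. The deposited knockout columns hold the same signal but are entered as another kind of value because error cells stand among the numbers. Per the file headers the LFC column is a log ratio, entered as a score for the same reason, and its deposited values equal log2 of wild type over knockout. Transcript length is another deposited column.

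Rows set aside were 918 without a knockout value, 290 on alternate or patch sequences and 175 whose LFC departed from log2 of the means by over 1e-06, leaving 18043. Values of density times length that recurred at least 10 times fell on whole multiples, or their sums, of 3 steps in the knockout with cycloheximide and 1 with harringtonine. Not every gene did, as TRPV2 came to 3.77 steps with harringtonine. Dividing density times length by the mean step gave estimated reads, an approximation for genes with several transcripts. Ratio intervals were 95% Clopper-Pearson, those of differences a normal approximation, for counting error only, because libraries without molecular identifiers can count 1 molecule repeatedly. The ratio intervals were tested on reads simulated with counting error alone. That test leaves out the mixing of 3 libraries of unlike depth in the knockout cycloheximide mean. The fit planned for values per library could not be run on means, and log2 ratios are described instead, without a pseudocount.

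Named genes are CNBP, the 12 well-counted genes highest and the 12 lowest by interval bound, the 5 best counted of those listed at 0 with either drug, from each list the 4 best counted and the highest and lowest member, and 6 each way for the difference from wild type. Others were chosen after their values were seen. The members and 23 lists were chosen with earlier results of these data known, and 7 more lists after the values were seen. Start sequences matched by symbol to RefSeq. Alternatives changed the centring, read minimum, pseudocount and fold. A few named items are not reported here.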

Additional observations from a re-analysis of the deposited data

How the results depend on the processing

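The counts of genes at least 2-fold higher, at least 2-fold lower and at least 2-fold different from wild type, and Spearman's rho with length, were 28, 32, 118 and -0.007 as reported. These values cover 1228 genes, as do the settings below that name no other number. Without centring the counts were 68 higher and 17 lower. With at least 50 reads they were 90, 115 and 387 of 3178 genes. With at least 200 they were 13, 13 and 53 of 514 (rho 0.20), and with no read minimum 1486, 1497 and 3839 of 12315. Above the median geometric mean density they were 342, 392 and 1216 of 6045. A pseudocount of 1 gave 12, 8 and 40 (rho -0.23), and a 1.5-fold threshold 145 higher and 99 lower. At least 100 reads in each knockout group, chosen after seeing the data, gave 12, 4 and 36 of 326 (rho 0.25). Upper-quartile scaling gave 34 and 28 and centring on the well-counted genes 20 and 44. Signs turned without centring for RPL39 (0.010), RPS15 (0.035), HIST1H1C (0.089) and HNRNPA1L2 (0.067), with a pseudocount for RPS15 (0.011), HIST1H1C (0.066) and HNRNPA1L2 (0.040), and with centring on the well-counted genes for MTRNR2L1 (-0.030). The cause was not tested beyond what each setting's construction fixes. No paired analysis was possible because the table holds group means, and for the same reason no replicate could be left out. With at least 200 reads, or 100 in each group, the mitochondrial ribosomal protein and ubiquitin-conjugating lists had no median. The knockout with harringtonine is 1 library, so no interval here covers differences between libraries. Counting near-identical copies once and adding MTRNR2L13 were also chosen after seeing the data.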

Other observations

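Further lists in the knockout described housekeeping functions. Of 18 well-counted proteasome genes (median 0.18), 5 had intervals above 0 and 0 below (of all genes 22.4% and 11.6%), with PSMD14, the deubiquitinase of the lid, at 0.76 (0.18 to 1.33), PSMB4 at 0.66 and PSMB2 at -0.34. Of 11 glycolytic genes (median 0.16), 4 had intervals above 0 (of all genes 22.4%): PGK1 (0.50), ENO1 (10.8 and 17.9, ratio 0.47), LDHA (0.44) and LDHB (0.34). GAPDH had 13.4 and 16.7 (0.06, -0.09 to 0.20). The 22 very long proteins had a median of 0.23, with the repair kinase PRKDC at 0.40 (0.15 to 0.65) and TLN1, which links integrins to actin, at -0.25.

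The hnRNP and ubiquitin-conjugating lists were added after the values were seen. Of 23 hnRNP genes (median 0.25), 6 had intervals above 0 and 1 below (of all genes 22.4% and 11.6%). HNRNPH1 was highest at 0.51 (0.24 to 0.79) and HNRNPA1 had 5.20 and 7.44 (0.26). HNRNPA1L2 (-0.19, above 0 without centring) and HNRNPCL1 (-0.49) resemble HNRNPA1 and HNRNPC and are uncertain. All 7 well-counted ubiquitin-conjugating enzymes were below the all-gene median (median -0.33), with 1 interval below 0 (of all genes 11.6%). That was UBE2M, which conjugates NEDD8, the lowest at -0.70 (-1.27 to -0.17). With at least 50 reads the list had 17 genes, a median of -0.18 and a highest ratio of 0.71. The 6 mitochondrial ribosomal proteins had a median of 0.03, from MRPS16 at -0.91 to MRPL39 at 0.74. Homeobox HOX genes and stress-response genes with upstream reading frames had 0 well-counted members, and the immediate early genes 2, JUN (-0.16) and MYC (0.12). The genes listed at 0 with cycloheximide but not with harringtonine, led by ILDR2, ZBBX, ATG4A, FITM1 and CHMP4A, had at most 10 reads each.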
